A study of Homo sapiens with 40 samples.

Results

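Topotecan (Tpc) and OL9-119 were each added alone and together to wild-type (WT) HEK293A cells, and for every gene the combination was compared with what the single drugs add up to on the log scale. HEK293A is an adherent subclone of the HEK293 line of human embryonic kidney cells. The 16 WT libraries titled DMSO, TPC, OL9 and TPC_OL9 form this 2 x 2 design, with 4 libraries per condition, out of 40 libraries in the series. The DMSO group held 0.1% DMSO, and the Tpc group held 100 nM Tpc with the same DMSO. The OL9-119 group held 5 µM OL9-119 dissolved in DMSO, and the combination held both drugs at these doses. For the combination the labels give no DMSO content, while the study's text states that DMSO was present in all but the untreated samples. Exposure lasted 5 to 5.5 h. The other libraries are untreated WT cells and the same 5 conditions in PARP1-KO cells, which are a CRISPR/Cas9 knockout line taken from 1 clone and which received Tpc at 50 nM.

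Tpc stabilizes the covalent complex of DNA topoisomerase 1 (TOP1) with the DNA strand that the enzyme has cut. Tyrosyl-DNA phosphodiesterase 1 (TDP1) removes the TOP1 remnant from the DNA end, and OL9-119 is an inhibitor of purified TDP1. A pair of stress programs recurs in the results. Cells that lack amino acids, accumulate unfolded protein or have impaired mitochondria translate the transcription factor ATF4, which then induces genes of amino acid supply and of stress signaling. DNA breaks and other stresses activate kinases that switch on AP-1 factors of the JUN and FOS families and free NF-kappa B from its IkappaB inhibitors. ATF3, a stress-inducible transcription factor of the ATF/CREB family, belongs to both the ATF4 and the AP-1 programs.

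The measure used throughout is the interaction, which is the log2 level in the combination plus that in DMSO, minus those in Tpc and in OL9-119. It is 0 where the fold changes of the single drugs multiply, negative where the combination lies below that product and positive where it lies above. Levels are CPM, read counts scaled to the library total after TMM normalization, and the error beside a log2 value is its standard error (SE) from the edgeR fit. A gene was called when its Benjamini-Hochberg adjusted p was below 0.01 in the edgeR quasi-likelihood F-test.

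Total counts ranged from 3455043 to 14292607 over the 16 libraries, and no replicates agreed within sampling noise. The libraries differed in complexity. After thinning to the smallest total, 6 libraries held 15501 to 16829 detected genes and the other 10 held 18137 to 20627. These were DMSO replicates 2 and 3, combination replicates 1 and 2, and replicate 2 of each single drug. The conditions that enter the interaction with a plus sign thus held 2 such libraries each, and those with a minus sign held 1 each. DMSO replicate 3 stood apart from its group, with a mean correlation of log2 CPM of 0.886 with the other DMSO libraries and 9.93% of its counts in cytosolic ribosomal protein genes, against a median of 5.86%. Results are therefore also given for a fit with the number of detected genes as a covariate and for a fit without these 6 libraries. The keratins KRT8 and KRT18 and the neurofilament gene NEFL, which HEK293 cells are known to express, were present in every library, at 555 to 1068 CPM, 289 to 467 CPM and 232 to 347 CPM. Of the other HEK293 markers listed, VIM measured 475 to 722 CPM and CDH2 29.5 to 64.5 CPM, whereas the kidney lineage gene PAX2 reached only 0.109 to 7.57 CPM, the epithelial gene EPCAM 0 to 6.08 CPM and NEFM a median of 7.75 CPM. Among markers of other cell types, the fibroblast and smooth muscle genes COL1A1, COL3A1 and ACTA2 were present in every library, at 14.9 to 44.6 CPM, 9.66 to 21.9 CPM and 10.6 to 23.5 CPM. The endothelial genes PECAM1 and VWF stayed below 6 CPM, CD3E, CD68, ALB and MYH6 below 1 CPM, and PTPRC and INS were at 0 throughout.

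Across the transcriptome, 1 gene of 23359 was called as departing from the product of the single-drug folds. This gene was ATF3, which lay below the product, and it made up 0.00428% of the genes tested, whereas no gene (0%) was called above it. By comparison, the same fit called 93 genes higher (0.398%) and 52 lower (0.223%) with Tpc alone, and 77 higher (0.33%) and 61 lower (0.261%) with OL9-119 alone. With the combination, 229 genes were higher (0.98%) and 191 lower (0.818%) than in DMSO. These 3 comparisons share the DMSO libraries. At an unadjusted p below 0.05 the interaction was reached by 1567 genes (6.71%), of which 1001 (4.29%) were lower and 566 (2.42%) higher. The surplus of lower genes lay among scarce transcripts. Below a mean of 10 counts, 654 genes were lower and 175 higher, but among the 11847 genes with a mean of at least 50 counts, 321 were lower and 363 higher. With DESeq2 the split over all genes was 552 lower and 619 higher.

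The precision differed with expression level. Over the 11847 genes with a mean of at least 50 counts, the median interaction was -0.02 and the median SE 0.29. For 7779 of them (65.7%) the whole 95% confidence interval lay between -1 and 1, so that a departure of more than 2-fold in either direction fell outside the interval. Among the 4712 genes with at least 500 counts this held for 4445 (94.3%). Departures smaller than that were often not detectable. In simulated counts with the spread of these libraries, interactions were given only to genes with a mean of at least 50 counts. An interaction of log2 1 was recovered for 28 of 100 genes and one of log2 2 for 86 of 100. The Benjamini-Hochberg threshold is easier to pass with that many true interactions than where 1 gene is called, so recovery in the real data may be lower.

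**Figure D1:**
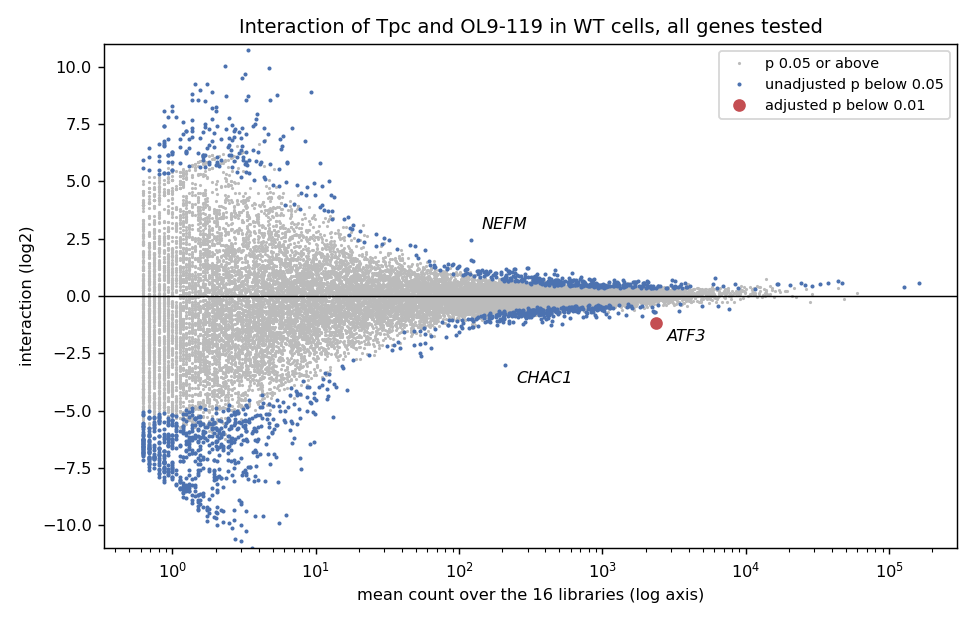
Interaction (log2, vertical axis) against the mean count over the 16 libraries (log axis) for all genes tested, with 2 genes beyond the plotted range. The spread narrows with the count, and ATF3 is the 1 gene with an adjusted p below 0.01.

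ATF3 was strongly expressed and rose with each drug, yet the combination reached only the level of Tpc alone. The gene lies on the plus strand of chromosome 1 at 212565334 to 212620777 (hg38). In the 4 DMSO libraries it measured 88.0, 112.7, 78.4 and 91.2 CPM. With Tpc it measured 351, 379, 372 and 352 CPM, and with OL9-119 199, 242, 192 and 205 CPM. The combination gave 358, 369, 350 and 396 CPM. Neither single-drug group overlapped the DMSO group, and the range of the combination enclosed that of Tpc and lay above every OL9-119 library.

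On the log2 scale ATF3 rose by 1.97 with Tpc (SE 0.12) and by 1.18 with OL9-119 (SE 0.12), which sum to 3.15. The combination rose by 1.99 (SE 0.12). The interaction was -1.16 (SE 0.17, 95% interval -1.50 to -0.82, adjusted p = 0.00352, edgeR). Combination and Tpc differed by 0.02, with an interval of -0.22 to 0.26, while the combination exceeded OL9-119 alone by 0.81 (adjusted p = 0.000177, edgeR). ATF3 was below additivity on the linear scale too. The increments over DMSO predict 480 CPM and the product of folds 822 CPM, against an observed mean of 368 ± 20.1 CPM (SD, n = 4). The linear departure was -112 ± 18.0 CPM (SE).

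The ATF3 value hardly depended on which libraries were used. Library names carry 3 prefixes, L01, L02 and L03, which coincide with replicates 1, 2 and 3 to 4, and within them the interaction was -1.14, -1.14 and -1.19 (log2 of CPM + 0.5). It was -1.21 with the number of detected genes as a covariate (adjusted p = 0.00151, edgeR) and -1.10 without the 6 libraries of low complexity (adjusted p = 3.69e-05, edgeR). Leaving out 1 library at a time gave -1.27 to -1.07. The call held without DMSO replicate 2, 3 or 4, OL9-119 replicate 3 or combination replicate 4, and in the other 11 of these 16 fits the adjusted p was above 0.01, the highest being 0.0235 without combination replicate 3 (edgeR). With the untreated libraries in place of DMSO the interaction was -0.99 with an adjusted p of 0.011 (edgeR), just past the threshold.

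**Figure D2:**
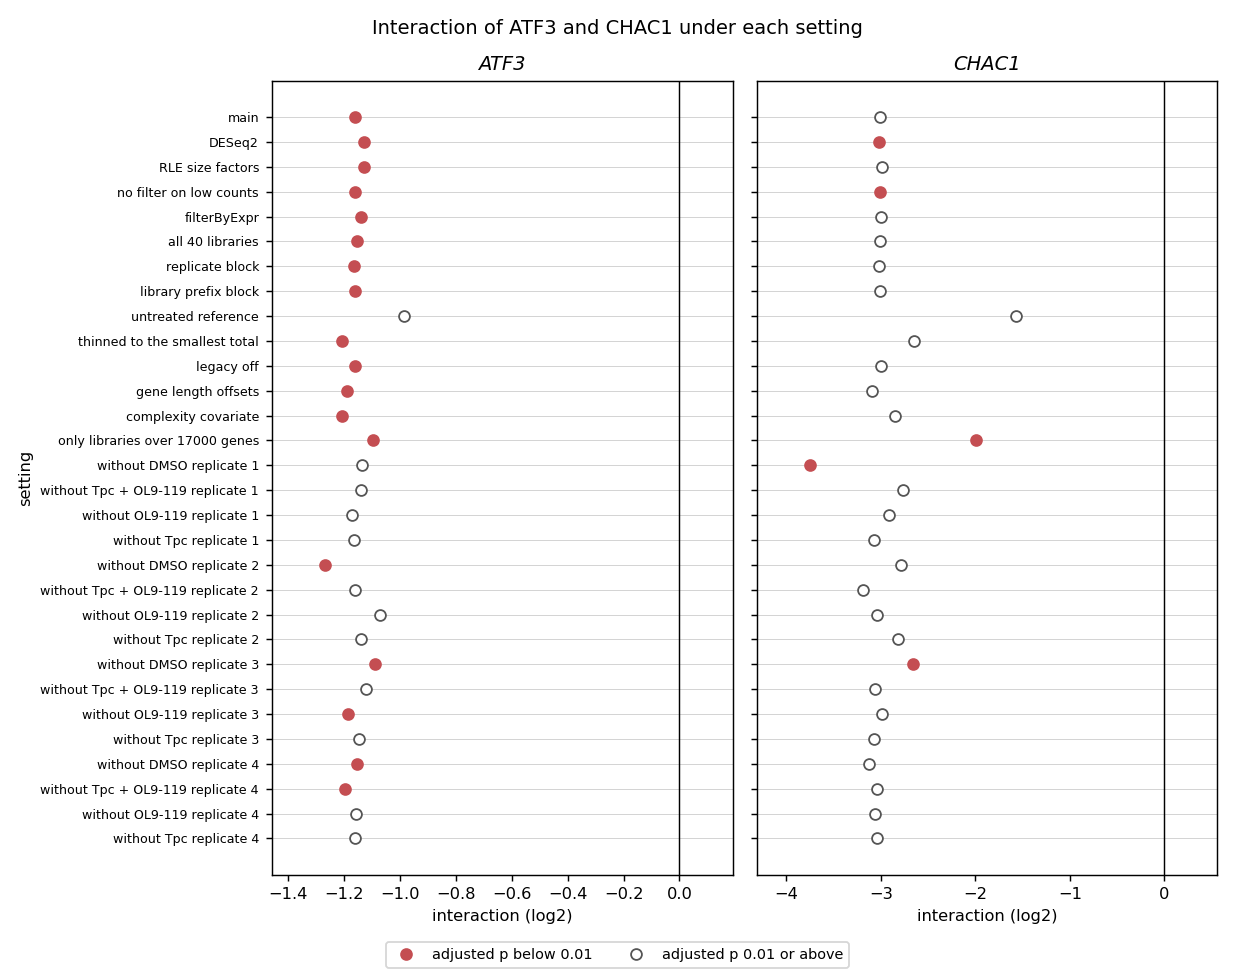
Interaction (log2) of ATF3 and CHAC1 under each setting tried, filled where the adjusted p was below 0.01. ATF3 stayed between -1.27 and -0.99 and CHAC1 between -3.75 and -1.57.

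RefSeq gives ATF3 a pair of promoter windows, each from 250 bases before to 50 after a transcription start. The upstream one is shown because it holds the core of the C/EBP-ATF response element, TGATGNAA, through which ATF4 dimers bind many of their targets. Capitals mark the match on the plus strand, 191 bases before the start, in a stretch of 176 bases (GRCh38.p14, chr1:212565157-212565332, plus strand).
ATF3: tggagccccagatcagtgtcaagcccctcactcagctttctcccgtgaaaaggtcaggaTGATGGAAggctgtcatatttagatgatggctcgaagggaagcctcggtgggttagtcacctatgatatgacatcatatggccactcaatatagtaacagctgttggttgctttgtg
CHAC1, the gene next in rank by p, holds the same core on the opposite strand, 209 bases before its start (GRCh38.p14, chr15:40953251-40953280, plus strand).
CHAC1: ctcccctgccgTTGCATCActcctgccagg
Of the 32 ATF4 targets with a RefSeq window, 10 (31.25%) hold this core on either strand, against 415 of 13948 genes tested (2.98%) and 3.62% of all 35116 windows. A match shows the letters only, and which start the cells used cannot be told from gene counts.

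CHAC1, a glutathione-degrading enzyme induced by ATF4, lay further below the product, but it did not pass the threshold. It was scarce in DMSO, at 2.77, 0.746, 0.124 and 1.92 CPM. Tpc gave 6.77, 10.6, 6.78 and 7.15 CPM, OL9-119 54.8, 42.3, 48.6 and 40.6 CPM, and the combination 15.1, 41.5, 34.8 and 32.5 CPM. Both drugs raised it above every DMSO library, and 3 of 4 combination libraries lay below every OL9-119 library. It rose by 2.42 with Tpc, 4.98 with OL9-119 and 4.39 with both. The interaction was -3.01 (SE 0.53, adjusted p = 0.0409, edgeR) and the linear departure -22.0 ± 6.59 CPM (SE). The value depended on the DMSO group, in which the counts were lowest. It was -3.75 without DMSO replicate 1 (adjusted p = 0.00791, edgeR), -2.66 without DMSO replicate 3 (adjusted p = 0.00743, edgeR) and -1.57 against the untreated libraries (adjusted p = 0.812, edgeR), whose CHAC1 level was 3.95 ± 2.97 CPM (SD, n = 4). Without the 6 libraries of low complexity it was -1.99 (adjusted p = 0.00252, edgeR), and with the complexity covariate -2.85 (adjusted p = 0.189, edgeR).

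**Figure D3:**
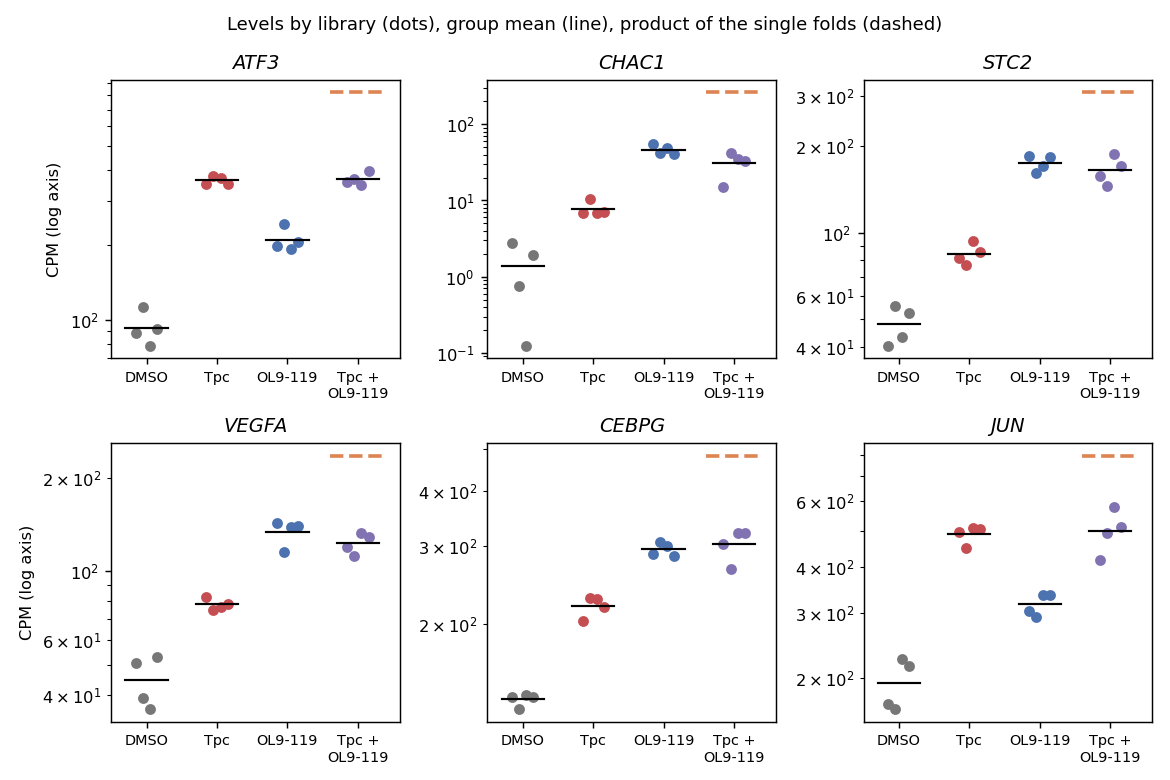
CPM (log axis) of 6 genes in each WT library (dots, 4 per condition) with the group mean (line) and the product of the single-drug folds (dashed). In all 6 the combination libraries lie below the dashed line.

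The next 3 genes by p below the product were STC2, VEGFA and CEBPG, and in each the combination libraries overlapped those of OL9-119 alone. STC2 (stanniocalcin 2, a secreted glycoprotein of the stress response) measured 40.3 to 55.4 CPM in DMSO, 77.1 to 93.1 CPM with Tpc, 161 to 184 CPM with OL9-119 and 146 to 188 CPM with both. The combination thus overlapped the OL9-119 group. Its interaction was -0.90 (SE 0.19, adjusted p = 0.302, edgeR). VEGFA, the growth factor of blood vessels, rose by 0.81 with Tpc and 1.59 with OL9-119 and by 1.46 with both, an interaction of -0.93 (SE 0.20, adjusted p = 0.302, edgeR). CEBPG, a partner of ATF4 in DNA binding, rose by 0.71, 1.13 and 1.17, an interaction of -0.67 (SE 0.15, adjusted p = 0.651, edgeR). Combination and OL9-119 differed by -0.08, -0.12 and 0.04 in these 3 genes. None of the 3 passed the threshold in edgeR, whereas DESeq2 called ATF3, CHAC1, STC2, VEGFA and CEBPG.

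ATF4 target genes as a list lay below the product, though this list and those below were chosen with earlier results of these data known. A low DMSO level by itself raises both single-drug folds and lowers the interaction, so these values are not independent. All 40 were tested, the median interaction was -0.45, and 16 (40%) were lower at an unadjusted p below 0.05 and none higher, against 4.29% and 2.42% of all genes. Only ATF3 passed the adjusted test. OL9-119 raised 25 of the 40, Tpc 8 and the combination 25, against 0.33%, 0.398% and 0.98% of all genes. The amino acid transporters SLC7A11, SLC7A1 and SLC7A5 had interactions of -1.25, -0.88 and -0.81. SLC7A11, the cystine carrier, measured 8.2 to 18.2 CPM in DMSO, 17.3 to 26.2 CPM with Tpc, 57.1 to 106.1 CPM with OL9-119 and 37.3 to 84.7 CPM with both. The transcription factor CEBPB had -1.23, the mTOR inhibitor DDIT4 -0.72, the secreted stress factor GDF15 -0.998 and the pseudokinase TRIB3 -0.57. ATF4 itself, which is controlled mainly at translation, had -0.07 (SE 0.22). The enzymes PSAT1 and PHGDH of serine synthesis had -0.30 and -0.26, and the aminoacyl-tRNA synthetase genes NARS1 and WARS1 0.20 and 0.19. Of the 40 members, 34 were below additivity on the linear scale.

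**Figure D4:**
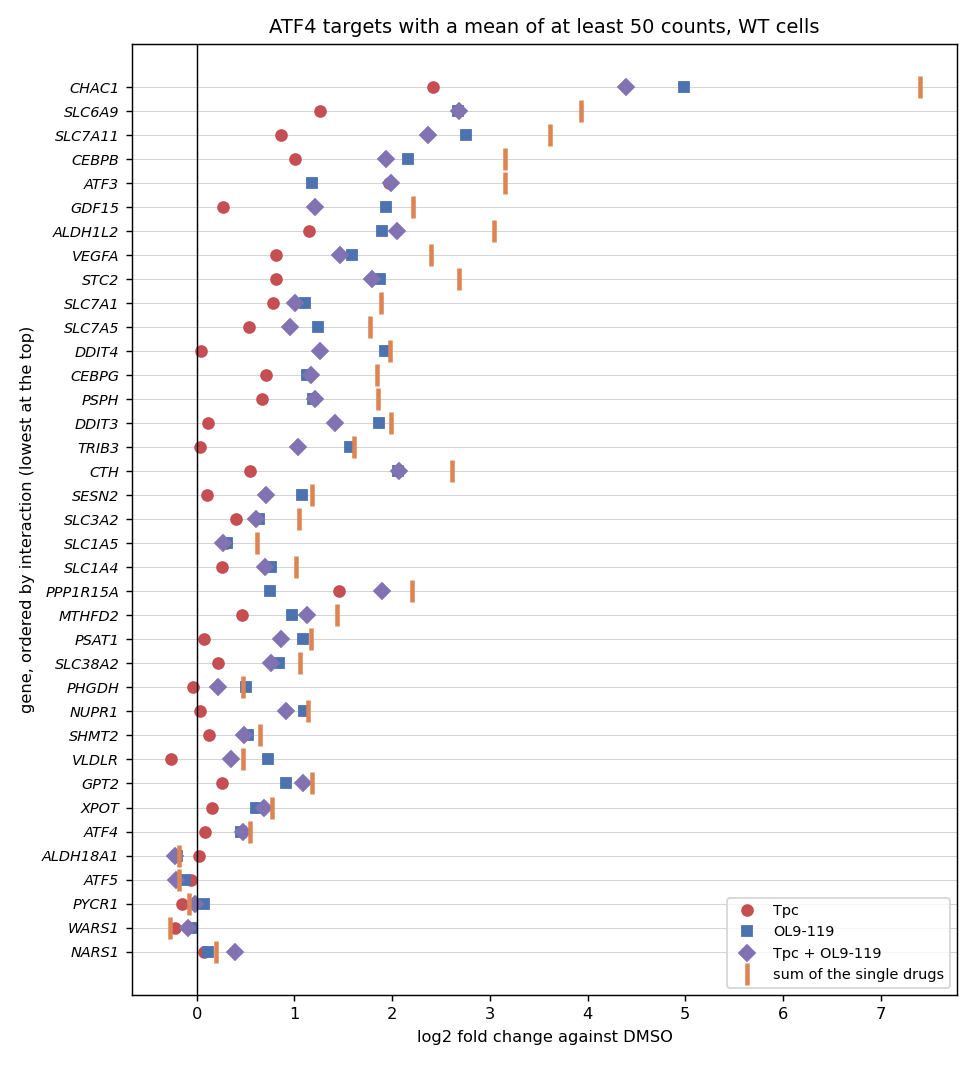
Log2 fold change against DMSO of 37 ATF4 targets with Tpc, OL9-119 and both, beside the sum of the single-drug values. The combination lies left of the sum in 34 genes; all 3 fold changes share the DMSO libraries.

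Within the library prefixes L01, L02 and L03 the list's median was -0.54, -0.62 and -0.47. The count of lower members was 17 with the complexity covariate, 21 without the low-complexity libraries and 16 against the untreated libraries, and 13 to 20 when 1 library at a time was left out. The list shares ATF3 with the AP-1 list, GDF15 and SESN2 with the p53 list, and SLC7A11 with the NRF2 and glutathione list.

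AP-1 and immediate early genes had a median of -0.37, with 6 of 30 (20%) lower and none higher at an unadjusted p below 0.05, against 4.29% and 2.42% of all genes. Tpc raised 11 of them and OL9-119 3, against 0.398% and 0.33% of all genes. JUN, the main AP-1 subunit, measured 165 to 226 CPM in DMSO, 449 to 507 CPM with Tpc, 293 to 335 CPM with OL9-119 and 416 to 579 CPM with both, so that the combination enclosed the Tpc range. It rose by 1.33 with Tpc, 0.70 with OL9-119 and 1.36 with both, and its interaction was -0.67 (SE 0.17, adjusted p = 0.71, edgeR). CCN1, a matricellular protein, rose by 0.90 with Tpc but stood at -0.02 against DMSO with both drugs. It measured 101.8, 182.5, 111 and 123.8 CPM with Tpc and 70.2, 70.5, 64.2 and 70.9 CPM in the combination, and these groups did not overlap. The combination differed from Tpc by -0.91 (adjusted p = 0.00537, edgeR). The interaction of CCN1 was -0.73 (SE 0.23, adjusted p = 0.71, edgeR). The AP-1 subunits FOSL2 and JUND had -0.49 and -0.59, and JUNB and FOSL1 -0.22 and -0.01. The count of lower members was 5 with the covariate, 8 without the low-complexity libraries and 3 to 7 when 1 library at a time was left out, and against the untreated libraries 5 were lower and 2 higher.

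CXCL8 and CCL20, chemokine genes of the NF-kappa B response to Tpc, stood near the product of folds. CXCL8, which attracts neutrophils, measured 11.3 to 23.6 CPM in DMSO, 300 to 448 CPM with Tpc, 16.7 to 21.3 CPM with OL9-119 and 293 to 456 CPM with both. The Tpc and combination groups overlapped, and so did DMSO and OL9-119. Its interaction was -0.22 (SE 0.25), and that of CCL20 was 0.02 (SE 0.39). Within L01, L02 and L03 these values were 0.38, -0.15 and -0.68 for CXCL8 and 1.24, -1.91 and -0.003 for CCL20. The sign of CCL20 changed under 13 of 31 settings, so whether these 2 genes multiply exactly was not settled. Both rose with Tpc, by 4.52 and 4.26, and with the combination, by 4.53 and 4.25, and stood at 0.22 and -0.03 with OL9-119. CXCL10 measured 8.58 to 11.4 CPM with Tpc and 12.1 to 23.0 CPM with both, without overlap. It was scarce otherwise, at 0 to 0.800 CPM in DMSO and 0 to 1.23 CPM with OL9-119. Its interaction ran from -2.88 to -0.06 when 1 library at a time was left out, but was -0.81, 1.40 and 0.25 within the prefixes. Its mean with both, 17.6 CPM, lay between the increments over DMSO (9.83 CPM) and the product of folds (24.0 CPM). CXCL1 measured 0 to 1.37 CPM in DMSO, 0.629 to 0.962 CPM with OL9-119, 10.3 to 22.1 CPM with Tpc and 16.2 to 33.4 CPM with both. The interaction of CXCL1 ran from -0.64 to 0.71 when 1 library was left out. The 12 chemokines had a median of 0.03, with none lower and 1 higher (CXCL5, which was chosen after its value was seen and has a mean of 0.875 counts). Most chemokines were scarce, and this median ran from -0.57 without DMSO replicate 3 to 0.36 against the untreated libraries, being -0.52 with the complexity covariate. Among the 17 NF-kappa B subunits and feedback inhibitors the median was -0.25, with 2 lower and none higher. These were RELB, at -0.91 (SE 0.26), and the ubiquitin-editing inhibitor TNFAIP3, at -0.68 (SE 0.29). RELB measured 8.3 to 12.7 CPM in DMSO, 49.1 to 55.5 CPM with Tpc, 15.5 to 20.95 CPM with OL9-119 and 44.6 to 51.2 CPM with both. For NFKBIA the combination lay wholly above Tpc, at 201 to 263 CPM against 156 to 193 CPM. Its mean of 225 CPM was below the product of folds, 290 CPM, but above the 203 CPM that the increments over DMSO predict. On that linear scale 9 of the 17 members were below additivity and 8 above it. Of the 20 cytokine and surface protein genes, 1 (5%) was lower at an unadjusted p below 0.05, near the 4.29% of all genes. This was TNFRSF9 (-0.78, SE 0.28), and CD69 stood at 1.01 (SE 0.72). IER3 measured 157 to 189 CPM with Tpc and 202 to 245 CPM with both, where its mean was 232 CPM against a product of folds of 292 CPM. The increments over DMSO predict 206 CPM for IER3, less than its mean with both. Of these 20 genes, 8 were below additivity on the linear scale and 12 above it.

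Genes of G2 and mitosis showed the opposite sign. Tpc lowered 21 of the 40, the combination 23 and OL9-119 1, against 0.223%, 0.818% and 0.261% of all genes. The median interaction was 0.26, with 9 members higher (22.5%) and none lower, against 2.42% higher among all genes. CCNB1, the cyclin that drives entry into mitosis, measured 286 to 344 CPM in DMSO, 126.97 to 148 CPM with Tpc, 198 to 259 CPM with OL9-119 and 123.84 to 147 CPM with both. Tpc and the combination overlapped, and both lay below every OL9-119 library. CCNB1 fell by 1.24 with Tpc and by 1.23 with the combination, and OL9-119 gave -0.56 (adjusted p = 0.0103, edgeR). The interaction was 0.57 (SE 0.17, adjusted p = 0.71, edgeR). CENPE, CDK1 and CDC20 had 0.58, 0.43 and 0.47, whereas PLK1, KIF20A and PSRC1, all lowered by Tpc, had 0.20, 0.31 and 0.04. The count of higher members was 6 with the covariate, 6 without the low-complexity libraries and 7 against the untreated libraries, and it ran from 6 to 14 when 1 library was left out, with 14 without DMSO replicate 3. Of the 33 members with a RefSeq promoter window, 22 (66.7%) hold the cell cycle homology element TTTGAA and 29 (87.9%) the NF-Y box CCAAT on either strand, against 14.2% and 42.4% of genes tested.

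Mitochondrially encoded transcripts were the list with the largest share of members past an unadjusted p of 0.05. Of 15 tested, 11 (73.3%) were higher and none lower, with a median of 0.54, against 2.42% higher and 4.29% lower among all genes. OL9-119 lowered 10 of them, the combination 8 and Tpc none, against 0.261%, 0.818% and 0.223% of all genes. MT-ND4, a subunit of respiratory complex I, measured 4356, 4842, 5277 and 3806 CPM in DMSO and 3542, 3833, 3568 and 3408 CPM with Tpc. With OL9-119 it measured 2584, 3111, 2461 and 2575 CPM, and with both 3138, 3203, 2657 and 3218 CPM. OL9-119 was below every DMSO library, and the combination overlapped OL9-119. The interaction of MT-ND4 was 0.54 (SE 0.15, adjusted p = 0.71, edgeR), and the cytochrome oxidase subunit MT-CO1 had 0.41 (SE 0.12). MT-ND5, which fell by 2.28 with OL9-119 and by 1.87 with both drugs, had 0.54, and MT-ND6, the one protein gene of the light strand, -0.35 (SE 0.30). The share of mitochondrially encoded counts moved with library complexity. In DMSO it was 7.81% and 8.25% in the low-complexity libraries against 6.38% and 7.45% in the others, and in the combination 6.34% and 6.52% against 5.07% and 5.91%. With the covariate the median was 0.25 with 6 members higher, and without those libraries it was 0.36 with 11 higher.

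The cytosolic heat shock genes had a median of 0.19, with 6 of 20 (30%) higher and none lower, against 2.42% and 4.29% of all genes. OL9-119 lowered 5 of them and Tpc 1, against 0.261% and 0.223% of all genes. HSPA1B, an inducible HSP70, measured 556 to 908 CPM in DMSO, 344 to 452 CPM with Tpc, 132 to 149 CPM with OL9-119 and 97.96 to 131 CPM with both. Its interaction was 0.66 (SE 0.20, adjusted p = 0.71, edgeR), and within the prefixes L01, L02 and L03 it was -0.09, 0.49 and 1.06. HSPA1B and HSPA1A are near-identical copies, so the reads between them are uncertain. The constitutive HSPA8 and the co-chaperones DNAJA1 and DNAJB1 had 0.51, 0.44 and 0.49. HSPA6 had a mean of 11.9 counts and an interaction of -0.89 (SE 1.70).

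Several lists of abundant housekeeping genes leaned above 0 without passing the test. At an unadjusted p below 0.05, 2.42% of all genes were higher. The share was larger among well-expressed genes, with 363 of 11847 at a mean of at least 50 counts and 194 of 4712 at 500 or more. The 56 nuclear subunits of the respiratory chain had a median of 0.17 with 3 (5.36%) higher (COX7A2, NDUFB4 and COX6C). The 39 proteasome genes had 0.15 with 4 (10.3%) higher, and the 76 cytosolic ribosomal protein genes 0.15 with none past that p. These medians rested on the choice of libraries. For ribosomal protein genes the median was 0.22, -0.53 and 0.44 within L01, L02 and L03, and it was -0.06 without DMSO replicate 3 and -0.10 with the complexity covariate. For the respiratory subunits it was 0.24, -0.43 and 0.46 within the 3 prefixes, and for the proteasome genes 0.16, -0.15 and 0.29.

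The genes whose products the drugs act on did not pass the test. TOP1 measured 340 to 411 CPM in DMSO, 299 to 324 CPM with Tpc, 310 to 347 CPM with OL9-119 and 290 to 369 CPM with both, an interaction of 0.22 (SE 0.15). TDP1 was low, at 20.8 to 41.5, 12.5 to 23.9, 24.6 to 48.6 and 10.3 to 21.8 CPM in the same order, with -0.37 (SE 0.38). PARP1 had 0.06 (SE 0.13). None of the 24 genes of TOP1 and TDP1 repair passed an unadjusted p of 0.05, and for 22 of them the 95% interval lay between -1 and 1.

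The remaining lists held at most 4 members each past an unadjusted p of 0.05, which 4.29% of all genes passed lower and 2.42% higher. Of 30 p53 targets 4 (13.3%) were lower (GDF15, BBC3, SESN2 and GADD45A) and the median was 0.00. Among 18 snoRNA host genes 3 (16.7%) were lower (SNHG1, SNHG17 and ZFAS1). In the BCL2 family of 16 genes, HRK and BBC3 (12.5%) were lower, at -0.84 and -0.74, and BBC3 is also on the p53 list. The histone list had the lowest median, -0.71, from 20 genes of which most were scarce in these poly(A) libraries. None of 26 interferon-stimulated genes and none of 35 genes of ribosome biogenesis passed. Of the 39 genes of G1/S and replication, CDT1 was lower (-0.81, SE 0.24).

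**Figure D5:**
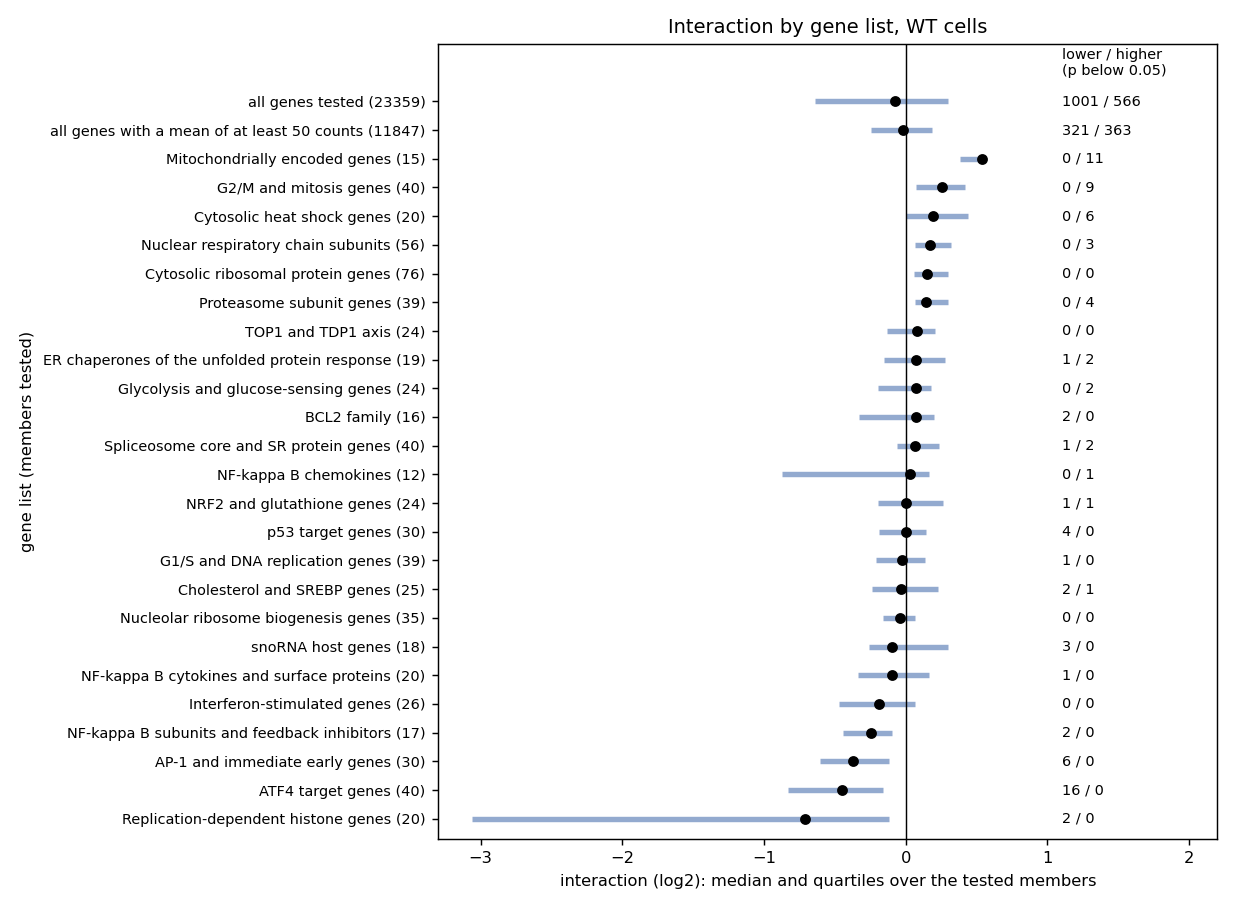
Median interaction (log2, dot) and quartiles (bar) over the tested members of each gene list, with the number lower and higher at an unadjusted p below 0.05. ATF4 targets (16 lower, none higher) and mitochondrially encoded genes (none lower, 11 higher) lie at opposite ends among lists of well-expressed genes.

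Among genes above the product, the 5 of lowest p were SH3BGRL, MNAT1, SRP9, the long non-coding CTC-338M12.4 and the neurofilament gene NEFM, all with an adjusted p of 0.71 (edgeR). SH3BGRL had 1.02 (SE 0.26), MNAT1, a subunit of the CDK-activating kinase, 0.95 (SE 0.25), and SRP9, of the signal recognition particle, 0.69 (SE 0.18). NEFM had 2.45 (SE 0.66) and depended on DMSO replicate 3, at 51.4 CPM against 7.999 to 21.4 CPM in the other DMSO libraries.

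By genomic span, protein-coding genes with a mean of at least 50 counts had a median interaction of 0.01 below 10 kb (1878 genes) and also from 10 to 50 kb (4893 genes), -0.02 from 50 to 100 kb, -0.09 from 100 to 500 kb and -0.19 from 500 kb upward (136 genes). In the longest class Tpc alone had a median of -0.49, OL9-119 0.21 and the combination -0.40.

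PARP1 averaged 36.5 to 41.6 CPM over the conditions in PARP1-KO cells and 783 to 843 CPM in WT cells. In PARP1-KO cells the same contrast called no gene (0% of 27806) with edgeR or DESeq2, with 870 (3.13%) at an unadjusted p below 0.05 in edgeR. The difference between the genotypes also called no gene (0%), with 2155 (7.75%) at an unadjusted p below 0.05. Genotype and Tpc dose cannot be told apart in this difference, since WT cells received 100 nM and PARP1-KO cells 50 nM. ATF3 had an interaction of -0.05 in PARP1-KO cells, with an interval of -0.34 to 0.23, and the difference from WT was -1.12 (SE 0.20, adjusted p = 0.0349, edgeR). On a scale set over all 40 libraries, ATF3 in PARP1-KO cells measured 339 ± 16.1 CPM in DMSO (SD, n = 4), 334 ± 14.1 CPM with Tpc, 386 ± 26.4 CPM with OL9-119 and 367 ± 37.9 CPM with both. On the same scale WT cells measured 90.6 ± 15.1 CPM in DMSO and 358 ± 13.5 CPM with Tpc. All 4 conditions in PARP1-KO cells thus lay near the Tpc level of WT cells, and untreated PARP1-KO cells too measured 326 ± 36.8 CPM, against 102.04 ± 9.81 CPM in untreated WT cells. CHAC1 differed between the genotypes by -3.35 (SE 0.68, adjusted p = 0.117, edgeR) and VEGFA by -1.02 (adjusted p = 0.273, edgeR). DESeq2 called ATF3, VEGFA and TUBB3 in this test; TUBB3 has a mean of 9.19 counts in the WT libraries and was named after its value was seen. The median interaction in PARP1-KO cells was 0.03 for ATF4 targets, 0.13 for AP-1 genes, 0.04 for mitosis genes and 0.03 for mitochondrially encoded genes. The study reports negligible differential genes after treatment of these cells. STC2 averaged 139 CPM there in DMSO, 153 CPM with Tpc and 143 CPM with OL9-119, and JUN 540, 526 and 615 CPM. SLC7A11 (25.7, 23.4 and 36.3 CPM) and MT-ND4 (2417, 2743 and 1911 CPM) moved more. Where single drugs move a gene little, a value near 0 cannot tell whether their folds would multiply.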

How the data were processed

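RNA was sequenced from poly(A)-selected, strand-specific MGIEasy libraries as paired-end reads of 100 bases. The deposited table holds raw read counts per gene, which per the study's methods the authors obtained with STAR on the human genome hg38. The submitters' processing notes name STAR 2.7.8, FastQC 0.11.9 and Picard 2.26.6. Which strand column was counted is not given in the sources used here, so that a gene and an overlapping antisense gene may share reads.

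Genes with at least 10 summed counts over the 16 WT libraries were kept (23359 of 58395). Counts were scaled by TMM and tested with edgeR 4.0.16 (quasi-likelihood F-test, limma 3.58.1, R 4.3.3), with 1 mean per condition, the interaction as a contrast and Benjamini-Hochberg adjustment over all genes tested. The genotype difference was fitted on 32 libraries. DESeq2 1.42.0 served as an alternative. Genomic positions came from GENCODE 44, which matched 57754 genes, and promoter sequences from RefSeq (GRCh38.p14), which covered 73 of the 92 named genes. Total counts per library limit the precision, as given with the results, and CPM values are not corrected for gene length.

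The labels call replicates biological and the study's methods in one place technical, so p-values measure only the spread between these samples, which may be technical. The contrast, gene lists and named genes were chosen with earlier results of these data known. Named were genes past the adjusted threshold, or the 5 of lowest p in a direction with fewer than 5, up to 3 members of lowest p per list with a mean of at least 50 counts, and TOP1, TDP1, PARP1, CXCL8, CCL20, CD69, PLK1, KIF20A, PSRC1, HSPA6 and GADD45A. Other list members were given as examples after their values were seen. The alternatives for library complexity were added after seeing the data. The fit was tested on simulated data, in which 22019 genes were tested and 2 false calls were made. Beside the 16 libraries, the 4 untreated WT libraries served as another reference.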

Additional observations from a re-analysis of the deposited data

Results flagged for a closer look

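Of 368 gene and condition groups of 4 WT libraries, 28 held a library whose gap to its nearest neighbour, as a share of the group's range, exceeded Dixon's 95% critical value. Chance alone marks about 1 in 20 groups, and the groups share libraries. The ratio of gap to range follows each gene.

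Tpc replicate 2 stood above its group in 8 genes. These were CHAC1 (0.898), the chemokine gene CXCL1 (0.860), the chaperone genes HSP90B1 (0.929) and DNAJA1 (0.901), the histone gene H2AC6 (0.854), the ribosomal protein gene RPS3A (0.846), the proteasome assembly factor POMP (0.881) and the proteasome subunit PSMA4 (0.915). CHAC1 measured 10.6 CPM there, against 6.77 to 7.15 CPM in the other Tpc libraries.

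OL9-119 replicate 2 was highest for NEFM (0.879), CCNB1 (0.874), the ferritin chain FTH1 (0.944) and PSMA4 (0.875) and lowest for VEGFA (0.856), while combination replicate 2 was highest for FTH1 (0.880). DMSO replicate 3 was highest for the linker histone H1-2 (0.832), the spliceosome genes SNRPE (0.864) and SNRPB2 (0.857) and for CD69 (0.866). The replicate 2 libraries and DMSO replicate 3 are among the 6 of low complexity.

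In the remaining libraries, CXCL10 was highest in DMSO replicate 4 (0.867) and in Tpc replicate 1 (0.856), and RELB was highest in Tpc replicate 1 (0.855). HERPUD1, of the degradation of misfolded ER proteins, was highest in DMSO replicate 1 (0.894), and CEBPG was lowest in DMSO replicate 2 (0.876). In combination replicate 1 IER3 was lowest (0.873) and NDUFB4 highest (0.910). In combination replicate 3 CCN1 (0.890) and MT-ND4 (0.857) were lowest, and the mitophagy receptor BNIP3 was lowest in OL9-119 replicate 1 (0.944). No explanation was tested for these values.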

How the results depend on the processing

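ATF3 stayed negative under all 31 settings, with an adjusted p below 0.01 under 19 (edgeR or DESeq2). CHAC1 stayed negative under all 31, with an adjusted p below 0.01 under 5. These settings include the threshold of 0.05 and the added minimum of log2 1, which reuse the main fit and so repeat its values. The interaction in WT cells called 5 genes with DESeq2 (ATF3, CHAC1, STC2, VEGFA and CEBPG), 3 with no filter on low counts (ATF3, CHAC1 and, higher, NEFM), 2 at a threshold of 0.05 and 2 without the low-complexity libraries (ATF3 and CHAC1 in both), and 0 against the untreated libraries, where 1413 genes had an unadjusted p below 0.05. Leaving out 1 library gave 0 to 2, with CHAC1 alone without DMSO replicate 1 and both ATF3 and CHAC1 without DMSO replicate 3. For Tpc, OL9-119 and the combination against DMSO, DESeq2 called 325, 350 and 963 genes, no filter on low counts 233, 320 and 851, a fit to all 40 libraries 285, 334 and 978, a threshold of 0.05 271, 290 and 1060, an added minimum of log2 1 72, 58 and 177, and the fit without low-complexity libraries 443, 607 and 812. The combination called 710 against the untreated libraries and 640 with the complexity covariate. Leaving out 1 library gave 89 to 167 for Tpc, 72 to 175 for OL9-119 and 271 to 607 for the combination. The genotype difference called 3 genes with DESeq2 and 1 at a threshold of 0.05, and 0 to 1 when a library was left out, the 1 being ATF3 without WT DMSO replicate 2. The interaction in PARP1-KO cells called 0 in every fit with edgeR, with 646 to 1274 genes at an unadjusted p below 0.05 when a library was left out. The split of genes at an unadjusted p below 0.05 was 1001 lower and 566 higher with TMM, 956 and 644 with RLE size factors, and 349 and 471 with edgeR's filterByExpr. The cause of these changes was not tested.

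With the replicate number as a replicate block the interaction called 1 gene (ATF3, at -1.16 with an adjusted p of 0.00125, edgeR), Tpc 145, OL9-119 154 and the combination 482, so no call of the interaction changed. Residuals of libraries with the same number correlated at a mean of 0.07 (from -0.29 to 0.39, 11 of 24 pairs above 0.1). For different numbers the mean was -0.01 (from -0.42 to 0.36, 19 of 72 pairs above 0.1). Of 16 libraries, 8 correlated best with their own number. With the block, 1130 genes had an unadjusted p below 0.05 for the interaction in edgeR, against 1567 without it. The main fit did not pair libraries by number, and whether they share a batch was not tested. Thinning every library to the smallest total called 1, 134, 130 and 431 genes for the interaction, Tpc, OL9-119 and the combination. Simulated interactions of log2 1 were given to 100 genes with a mean of at least 50 counts. Of these, 28 of 100 were recovered in all, and 22 of 40 at 500 counts or more.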

Other observations

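In lists not described above, a few members passed an unadjusted p of 0.05, and none passed the adjusted test. Of all genes, 6.71% passed that unadjusted p in either direction. The share was 15.8% for the ER list and 12% for the cholesterol and fatty acid list. It was near that of all genes for the glycolysis (8.33%), NRF2 and glutathione (8.33%) and spliceosome (7.5%) lists. Of 19 ER chaperone and degradation genes, HSPA5 and HSP90B1, the main chaperones of the ER lumen, stood above the product of folds, at 0.32 (SE 0.15) and 0.46 (SE 0.17), and HERPUD1 below it, at -0.57 (SE 0.24). Among 25 cholesterol and fatty acid genes, IDI1 stood at 0.84 (SE 0.27), and FASN and LSS at -0.68 (SE 0.23) and -0.60 (SE 0.29). Of 24 glycolysis and glucose-sensing genes, PGAM1 stood at 0.41 (SE 0.19) and BNIP3 at 0.49 (SE 0.24). TXNIP, the glucose-sensitive inhibitor of thioredoxin, fell by 1.00 with OL9-119 and by 0.97 with the combination, and its interaction was 0.09 (SE 0.21). Of 24 NRF2 and glutathione genes, ABCC2, an export pump, stood at 2.43 (SE 0.93) and SLC7A11 below the product. Among 40 spliceosome genes SNRPE stood at 0.75 (SE 0.31), SNRPB2 at 0.45 (SE 0.22) and U2AF2 at -0.38 (SE 0.17).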
